A study of Mus musculus with 7 samples.

Results

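The genes described here encode the proteins of the cytosolic ribosome. They were taken as the rows of the deposited count table whose mouse symbol starts with *Rpl* or *Rps* and a digit, or is *Rplp0*, *Rplp1*, *Rplp2* or *Rpsa*. Pseudogene symbols (263 rows) and ribosomal S6 kinases (10 rows) were dropped, and so were 8 rows under a mean of 1 CPM (a count scaled to the library's total) over the libraries. This left 84 of 47729 identifiers, 49 with a large subunit symbol and 35 with a small subunit symbol. RNA came from the aorta of mice, with 4 libraries labelled wild type (WT) and 3 labelled as *Mmp19* knockout (KO). The product of *Mmp19* is a secreted matrix metalloproteinase, which the series title sets in vascular smooth muscle cells and thoracic aortic aneurysm and dissection. The labels give no age, strain, allele, Cre driver or treatment for either group, and they do not say that each library came from its own mouse. P-values therefore measure the spread between these libraries, which may be technical.

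The ribosome is built from a small subunit, which reads the mRNA, and a large subunit, which joins the amino acids. Each holds ribosomal RNA and many small basic proteins, nearly all present in 1 copy per particle, so their genes are usually expressed at matched levels. Their mRNAs are short and abundant, and they begin with a tract of C and T bases, the terminal oligopyrimidine (TOP) tract, through which the TOR kinase and the RNA-binding protein Larp1 control their translation. RNA counts do not measure that translation.

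The label was checked against the annotation before the values were read. Of the 84 rows, 82 are annotated as protein-coding genes in GENCODE M21. *Rps4l* and *Rps3a2* are annotated there as pseudogenes. *Rps19bp1* is on the list through its symbol, but it encodes a binding partner of a ribosomal protein and not a subunit. *Fau*, which encodes a subunit fused to a ubiquitin-like domain, carries another symbol and is treated below as a partner. For 56 of the 84 the table also holds rows named as their pseudogenes, and reads may be divided between such near-identical copies. The summed pseudogene rows reached 7.48% of the level of *Rpl17* and 2.80% or less of the level of every other gene here. Pseudogenes under other symbols were not counted, so these shares may be too low.

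Start-site windows show what many of these genes share in sequence. RefSeq start sites on GRCm38.p6 were at hand for 62 of the 84 genes, in 73 windows. Each window below runs from 50 bases before to 30 bases after the annotated start, 5′ to 3′ on the coding strand, and the capitals mark the longest run of C and T that opens with a C. The first 3 are the genes with a window that ranked highest by p in the comparison below, and the last 2 contrast a gene without a clear difference and the stalk protein gene *Rplp0*.

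Rps26: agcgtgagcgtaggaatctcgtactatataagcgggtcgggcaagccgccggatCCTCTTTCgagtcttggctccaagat
Rps15a: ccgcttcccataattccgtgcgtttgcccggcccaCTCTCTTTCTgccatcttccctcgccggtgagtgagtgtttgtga
Rpl35: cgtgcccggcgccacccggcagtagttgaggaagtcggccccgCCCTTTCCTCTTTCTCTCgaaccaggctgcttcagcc
Rpl22l1: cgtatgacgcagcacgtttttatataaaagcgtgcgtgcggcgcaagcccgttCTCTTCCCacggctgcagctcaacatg
Rplp0: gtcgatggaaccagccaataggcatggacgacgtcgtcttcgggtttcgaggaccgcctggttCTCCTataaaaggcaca

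The windows lie at chr10:128626477-128626556 (*Rps26*, minus strand), chr7:118116118-118116197 (*Rps15a*, minus strand), chr2:39005102-39005181 (*Rpl35*, minus strand), chr3:28805458-28805537 (*Rpl22l1*, plus strand) and chr5:115559417-115559496 (*Rplp0*, plus strand). The run is 18 bases long in *Rpl35*, 10 in *Rps15a*, 8 in *Rps26* and in *Rpl22l1*, and 5 in *Rplp0*. Starts in use were not measured and may lie elsewhere, so a short run does not show that the transcript lacks the tract. A run of 8 or more bases was found in 57.5% of the 73 windows and in 24.2% of all 32851 windows of the table. A run of 10 or more was found in 39.7% and 12.1%. The letters CTTTCC stood on the coding strand in 19.2% of these windows and in 3.85% of all. Within the full 300 bases per start, and on either strand, CCGGAAG, the core bound by ETS factors, was found in 35.6% and 8.86%, and AAGATGGCG, which resembles the site of the factor YY1, in 8.22% and 1.40%. The E-box CACGTG, which Myc can bind, was found in 10.96% and 7.15%. These are matches of letters, not measured sites. By this run the genes had similar values: the median log2 fold change was 0.18 for the 39 genes with a run of 8 or more and 0.19 for the 23 genes without.

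Libraries summed to between 68151472 and 76926790 deposited counts. *Mmp19* itself read 24.8, 24.8, 20.7 and 34.7 CPM in WT replicates 1 to 4 and 25.5, 11.95 and 15.9 CPM in KO replicates 1 to 3 (log2 fold change -0.56, SE 0.29; edgeR adjusted p = 0.368). The library labelled KO replicate 1 thus lay inside the WT range, against its label, and which part of the gene the allele removes is not in the labels. WT and KO mean the libraries labelled so throughout, and values without KO replicate 1 are given beside the main results. Whole aorta holds several cell types, and fewer cells of a type cannot be told apart from less RNA per cell. Smooth muscle markers, all detected in every library, were lower in KO for 11 of 11 genes, and their summed level was 19827 to 21950 CPM in WT and 3950 to 14896 CPM in KO. Macrophage markers lay higher in KO for 12 of 12 genes, with sums of 345 to 587 CPM in WT and 771 to 4353 CPM in KO, and none was at 0 in any library. Heart muscle markers summed to 89.3 to 161 CPM in WT and to 818, 1374 and 34.6 CPM in KO replicates 1, 2 and 3, and 7 of 8 had a positive log2 fold change. Erythroid markers, 4 of 4 with a positive log2 fold change, summed to 513 to 2204 CPM in WT and 621 to 5894 CPM in KO, highest in KO replicate 3. Skeletal muscle markers, 6 of 6 with a positive log2 fold change, are given with *Rpl3l* below. Neutrophil markers summed to 2.95 to 9.97 CPM in WT and to 328, 10.1 and 56.2 CPM in KO replicates 1, 2 and 3. Counts of mitochondrially encoded genes made up 9.99% to 15.3% of a WT library and 5.95%, 11.8% and 13.7% of KO replicates 1, 2 and 3. The part of these differences in the ribosomal values was not tested.

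As a group, the ribosomal protein genes took a larger share of the counts in every KO library than in any WT library. Their share was 1.497%, 1.67%, 1.59% and 1.62% in WT replicates 1 to 4, and 2.07%, 1.75% and 1.91% in KO replicates 1 to 3. The groups did not overlap, with 1.596% ± 0.0734 in WT (SD, n = 4) and 1.91% ± 0.160 in KO (SD, n = 3), a difference of 0.314 percentage points that was 0.234 without KO replicate 1. When libraries were scaled by TMM factors, which adjust for a few genes that dominate a library, the summed level was 15993, 17464, 15635 and 16563 CPM in WT and 18390, 17749 and 19028 CPM in KO. On that scale the KO mean was 1.12 times the WT mean, against 1.20 times for the unscaled share. KO replicate 1 led by share but not after scaling, its TMM factor of 1.13 being the highest of the 7 libraries. Without mitochondrially encoded genes in the total, the share was 1.82% ± 0.127 in WT and 2.13% ± 0.129 in KO (SD, n = 4 and 3). On this measure the groups nearly touched, at 1.97% in WT replicate 2, the highest WT library, and 1.98% in KO replicate 2, the lowest KO library. Both subunits had larger shares in KO, the large subunit from 0.961% ± 0.0411 to 1.14% ± 0.0967 and the small subunit from 0.635% ± 0.0325 to 0.771% ± 0.0642 of the counts (WT, then KO; SD, n = 4 and 3).

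Gene by gene the differences were small and mostly of 1 sign. The log2 fold change of KO against WT ran from -0.07 (*Rps29*) to 0.52 (*Rps26*), with a median of 0.17 where all 19188 genes tested had a median of -0.03. Without KO replicate 1 the median of the 84 was 0.20. It was above 0 for 79 of the 84 genes, beside 46.9% of all genes tested. The medians were 0.15 for the 49 large subunit symbols and 0.18 for the 35 small subunit symbols. The genes share their libraries and vary together, so this count is not that of independent observations. No ribosomal protein gene passed the test over all genes: edgeR's quasi-likelihood test called 0 of the 84, higher or lower, where it called 0.0156% of all genes higher and 0% lower. The smallest adjusted p among the 84 was 0.174. At an unadjusted p under 0.05 edgeR gave 16 genes higher and 0 lower, beside 9.92% and 7.27% of all genes. DESeq2 called 9 of the 84 higher and 0 lower (5.3% and 3.01% of all genes), and limma-voom called 0 (0.0365% of all genes higher). DESeq2's calls included *Rpl23*, *Rpl32*, *Rpl35*, *Rpl36al*, *Rps12*, *Rps15a*, *Rps24* and *Rps26*. The number of calls depended on single libraries, as did the share of all genes that DESeq2 called higher. It was 0 without WT replicate 1 (3.72% of all genes), 9 without WT replicate 2 (4.31%), 1 without WT replicate 3 (3.68%) and 0 without WT replicate 4 (3.48%). It was 2 without KO replicate 1 (2.36%), 13 without KO replicate 2 (8.89%) and 1 without KO replicate 3 (4.04%).

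**Figure D1:**
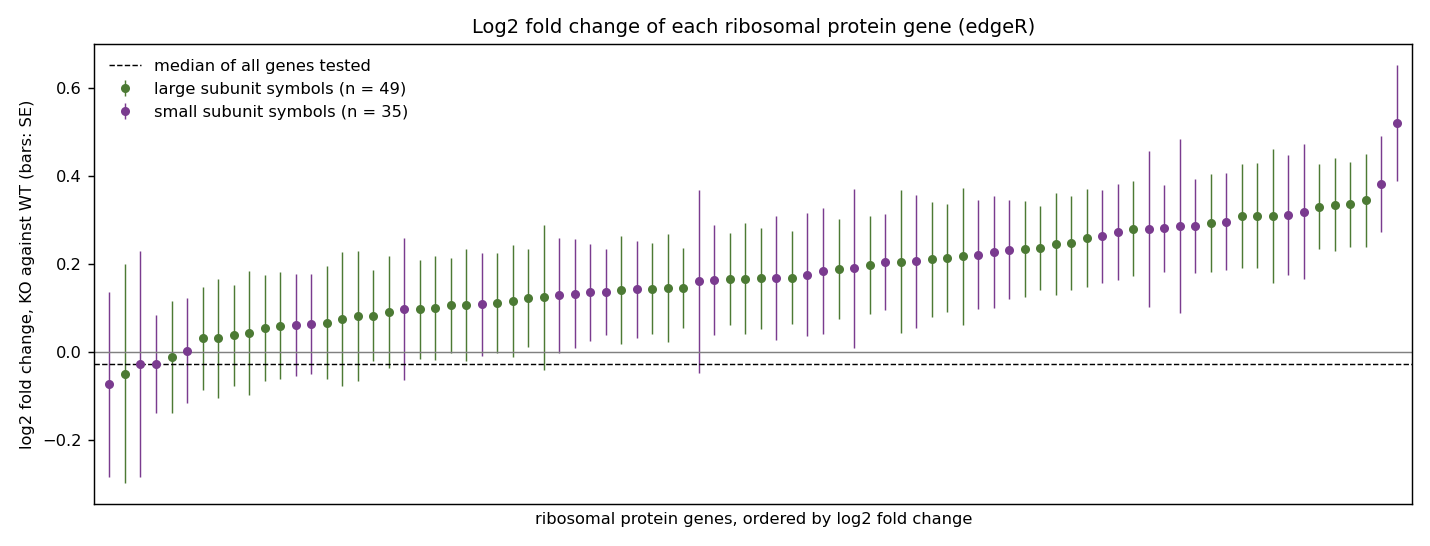
Log2 fold change of KO against WT for each of the 84 ribosomal protein genes, in rising order, with bars for the standard error and colours for the subunit of the symbol. The dashed line marks the median of all genes tested (-0.03), and 79 points lie above 0.

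The lowest KO library exceeded the highest WT library for 26 of the 84 genes (31.0%), beside 8.17% of all genes tested. For 0 of the 84 every KO library lay below every WT library, beside 8.56% of all genes. Leaving out a library can only keep or raise the first count, so a rise lends it no support. It was 46 without KO replicate 1, beside 10.8% of all genes, and 41 without WT replicate 2, also beside 10.8%. It was 36 without KO replicate 2, beside 16.2%. Without any other single library it was 26 or 27, beside 10.5% to 11.5%. The 26 genes of the first count over all libraries are 17 of the large and 9 of the small subunit. The median coefficient of variation over the 84 was 7.09% in WT and 8.45% in KO. It was 10.5% and 16.7% over the 5294 other genes at or above 35.2 CPM, the 10th percentile of the 84, a floor that does not match the genes by level.

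Among small subunit proteins *Rps26* had the largest log2 fold change. Its protein sits at the mRNA exit channel, and its gene is at chr10:128624534-128626747 on GRCm38. It read 125, 141, 131 and 119 CPM in WT replicates 1 to 4, and 218, 165 and 172 CPM in KO replicates 1 to 3. All KO libraries lay above all WT libraries, and KO replicate 1 stood highest. The means were 129 ± 9.40 CPM in WT (SD, n = 4) and 185 ± 28.5 CPM in KO (SD, n = 3). The log2 fold change was 0.52 (SE 0.13), with adjusted p = 0.174 in edgeR and 0.0190 in DESeq2, and it was 0.38 without KO replicate 1. *Rps15a*, a small subunit protein, read 113, 137, 129 and 121 CPM in WT and 168, 151 and 169.5 CPM in KO. Here the KO libraries were close to each other, and the log2 fold change was 0.38 (SE 0.11; edgeR adjusted p = 0.186). *Rps12* and *Rps24*, also among DESeq2's calls, had log2 fold changes of 0.29 and 0.30, and edgeR adjusted p of 0.238 and 0.237.

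In the large subunit the highest-ranked genes were *Rpl35*, *Rpl36al*, *Rpl32* and *Rpl23*. *Rpl35*, a protein near the exit of the nascent chain tunnel, read 83.0, 94.4, 83.5 and 82.3 CPM in WT and 114, 105 and 106 CPM in KO. WT replicate 2 was the highest WT library and still below all KO libraries. The log2 fold change was 0.34 (SE 0.096; edgeR adjusted p = 0.186). *Rpl32* read 121, 141, 119 and 122 CPM in WT and 163, 150 and 166 CPM in KO (log2 fold change 0.34, SE 0.11; edgeR adjusted p = 0.195). *Rpl23*, a protein at the interface of the subunits and 1 of those that can bind Mdm2 when free, read 124, 148, 132 and 134 CPM in WT and 179, 160 and 169 CPM in KO (log2 fold change 0.33, SE 0.10; edgeR adjusted p = 0.201). Within each of these genes KO replicate 2 was the lowest KO library and WT replicate 2 the highest WT library.

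The stalk of the large subunit, which recruits elongation factors, is made of the proteins of *Rplp0*, *Rplp1* and *Rplp2*. *Rplp0* is often used as a reference gene in PCR. It read 585, 611, 497 and 598 CPM in WT and 803, 619 and 707 CPM in KO. KO replicate 2 was just above the highest WT library, and the log2 fold change was 0.31 (SE 0.15; edgeR adjusted p = 0.347), or 0.21 without KO replicate 1. *Rplp1* read 267, 288, 293 and 286 CPM in WT and 313, 330 and 356 CPM in KO (log2 fold change 0.23, SE 0.11; edgeR adjusted p = 0.328). *Rplp2* overlapped between groups, at 126 to 179 CPM in WT and 143 to 171 CPM in KO (log2 fold change 0.08, SE 0.15; edgeR adjusted p = 0.814). Single libraries moved this value, which was 0.01 without KO replicate 3, 0.18 without KO replicate 2, and 0.04, 0.23 and 0.05 without WT replicates 1, 2 and 3. The groups thus did not overlap for 2 of the 3 stalk genes, beside 31.0% of the 84 genes and 8.17% of all genes tested. None of the 3 passed edgeR's test, and whether they differ from each other was not tested.

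**Figure D2:**
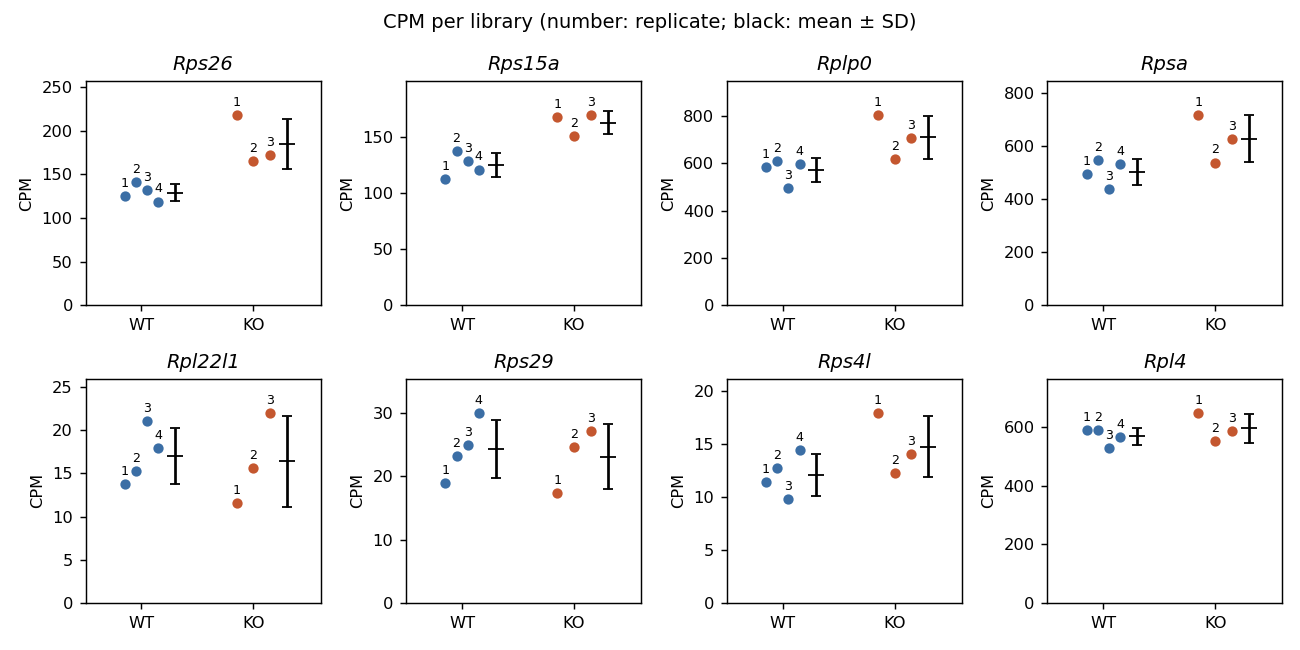
CPM per library for 8 ribosomal protein genes, WT in blue and KO in orange, with the replicate number above each point and the mean ± SD in black (n = 4 and 3). The KO points of *Rps26*, *Rps15a* and *Rplp0* lie above all WT points, while those of *Rpsa*, *Rpl22l1*, *Rps29*, *Rps4l* and *Rpl4* overlap with WT.

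Levels were compared between genes per length. They were divided by the summed exon length of the annotation, which includes exons of minor transcripts and so understates genes with many of them. On this scale of CPM per kilobase *Rplp1* stood at 611, *Rplp0* at 381 and *Rpl23a* at 345 in the large subunit. In the small subunit *Rps3a1* stood at 479, *Rps15* at 305 and *Rps4x* at 274. The median over the 84 genes was 88.9 and the lowest value, that of the pseudogene *Rps3a2*, was 1.43. Of these *Rplp0* and *Rplp1* had the log2 fold changes of 0.31 and 0.23 given above, and the others had 0.10 or less. *Rps3a1* read 440 to 491 CPM in WT and 437 to 492 CPM in KO, with log2 fold change 0.003 (SE 0.12), and the groups covered the same range. *Rps15* (174 to 214 CPM in WT, 190 to 205 CPM in KO) and *Rpl23a* (270 to 312 CPM in WT, 285 to 315 CPM in KO) overlapped as well. *Rps4x*, the X-linked copy of its gene, read 408 to 453 CPM in WT and 438 to 476 CPM in KO.

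Only 5 of the 84 had a negative log2 fold change, and for each the groups overlapped. *Rps29*, a small zinc-binding protein of the small subunit, read 18.9, 23.2, 25.01 and 30.03 CPM in WT and 17.3, 24.7 and 27.2 CPM in KO (log2 fold change -0.07, SE 0.21; edgeR adjusted p = 0.888). KO replicate 1 was below all WT libraries, and the other two KO libraries were inside the WT range. *Rpl22l1*, *Rps3a2* and *Rpl9* had log2 fold changes of -0.05, -0.03 and -0.01. The sign changed under at least 1 alternative setting for *Rps29* and these genes, and for *Rps3a1*.

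Paralogous copies let the composition of the pool be read within a library. *Rpl22l1*, a close relative of *Rpl22*, read 13.7, 15.2, 21.1 and 17.9 CPM in WT and 11.6, 15.6 and 21.998 CPM in KO. Its level was 22.5% ± 3.63 of that of *Rpl22* in WT (SD, n = 4) and 19.1% ± 4.25 in KO (SD, n = 3; exact 2-sided permutation p = 0.286). The ratio differed more between libraries than between groups, from 15.5% in KO replicate 1 to 27.0% in WT replicate 3. *Rps27l*, a relative of *Rps27* that p53 can induce, stood at 43.9% ± 5.55 of its partner in WT and 43.1% ± 2.86 in KO (SD, n = 4 and 3; exact permutation p = 0.914). *Rpl36al*, an autosomal copy of the X-linked *Rpl36a*, stood at 78.9% ± 6.89 and 80.7% ± 7.20 (SD, n = 4 and 3; exact permutation p = 0.686). *Rpl36al* read 38.1 to 45.1 CPM in WT and 49.6 to 53.6 CPM in KO, and *Rpl36a* 48.1 to 60.2 CPM in WT and 60.6 to 66.9 CPM in KO, so that both copies were higher in every KO library. *Rps4l* stood at 2.75% ± 0.383 of *Rps4x* in WT and 3.24% ± 0.749 in KO, and *Rpl7l1* at 13.5% ± 1.12 of *Rpl7* in WT and 15.2% ± 3.15 in KO (SD, n = 4 and 3; exact permutation p = 0.371 and 0.429). For both pairs the highest ratio of the 7 libraries was that of KO replicate 1, 4.09% and 18.8%. *Rps3a2* stood at 0.244% ± 0.0161 and 0.240% ± 0.0307 of *Rps3a1* (SD, n = 4 and 3; exact permutation p = 0.8286). Over the 6 ratios the Benjamini-Hochberg adjusted p was 0.857 or more, and the difference was within the spread of the libraries in each.

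The rule's minimum of 1 CPM on unscaled counts fell between *Rps3a2* (1.13 CPM) and *Rpl37rt* (0.997 CPM), with *Rpl6l* (0.932 CPM) and *Rps3a3* (0.767 CPM) just outside. Further below lay copies known for restricted expression. *Rpl3l*, the striated muscle form of *Rpl3*, read 0.0940, 0.113, 0 and 0.285 TMM-scaled CPM in WT replicates 1 to 4 and 1.52, 0.257 and 1.14 CPM in KO replicates 1 to 3. These are 0 to 21 counts in WT and 18 to 125 in KO (log2 fold change 2.96, SE 1.04; edgeR adjusted p = 0.225). Heart muscle markers summed to 818, 1374 and 34.6 CPM in KO replicates 1 to 3. Skeletal muscle markers summed to 26.6, 20.6 and 177 CPM in the same libraries, and to 5.99 to 9.91 CPM in WT. The part of muscle tissue in these values was not tested. *Rpl39l*, known from testis, was at 0.207 CPM or less in every library. *Rpl10l* and *Rps12l1* had 0 counts throughout.

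Libraries differed in how evenly the members moved. Deviations were taken as log2 CPM minus the mean of the WT libraries. Their medians over the 84 genes were -0.07, 0.09, -0.05 and 0.01 in WT replicates 1 to 4 and 0.12, 0.15 and 0.25 in KO replicates 1 to 3. All KO medians lay above all WT medians, KO replicate 3 highest. By unscaled share of counts KO replicate 1 was highest (2.07%, against 1.75% and 1.91% in KO replicates 2 and 3). Macrophage markers were highest there too, but on the TMM scale (4353, 771 and 1386 CPM in KO replicates 1 to 3). On that scale the summed level of the 84 genes was highest in KO replicate 3 (18390, 17749 and 19028 CPM in order). A link between the markers and the ribosomal values was not tested. The standard deviation of the deviations over the 84 genes was 0.067 to 0.11 in WT, and 0.23, 0.12 and 0.13 in the KO libraries in order. Each WT library is part of the mean it is compared with and no KO library is, so WT spreads come out narrower by construction. How far this accounts for the difference in spread was not tested. In KO replicate 1 the deviations reached from -0.53 (*Rpl22l1*) to 0.76 (*Rps26*), and 60 of the 84 genes were above the WT mean. In KO replicates 2 and 3 the numbers above were 74 and 81.

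**Figure D3:**
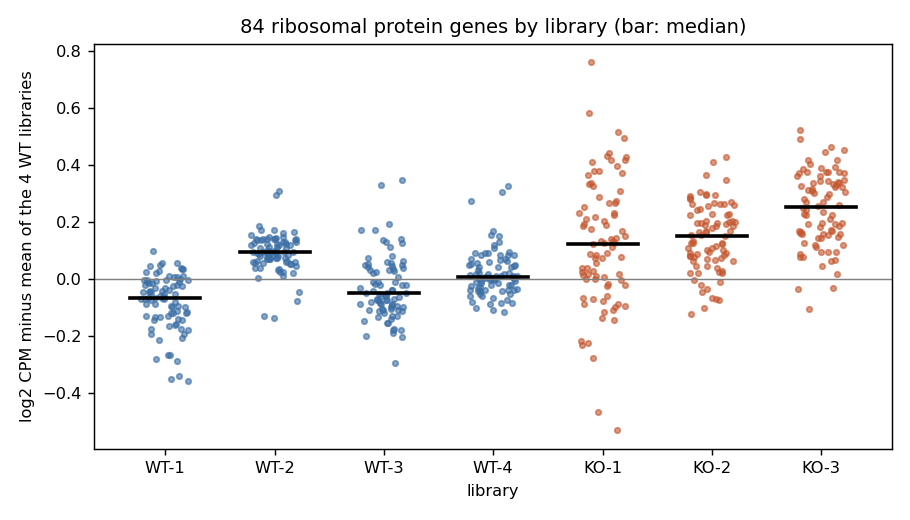
Deviation of each ribosomal protein gene from the WT mean (log2 CPM, vertical axis) in each of the 7 libraries, with 1 point per gene and a bar at the median. The KO medians of 0.12, 0.15 and 0.25 lie above the WT medians, and the points of KO-1 spread most widely.

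The genes that set KO replicate 1 apart were chosen here after their values were seen. *Rpsa*, the laminin receptor and small subunit protein, read 493, 548, 440 and 532 CPM in WT and 717, 538 and 628 CPM in KO (log2 fold change 0.32, SE 0.15; edgeR adjusted p = 0.340), and its log2 fold change was 0.21 without KO replicate 1. *Rps2*, a protein at the entry of the mRNA channel, read 434, 470, 396 and 468 CPM in WT and 599, 440 and 490 CPM in KO. *Rps9* read 228, 254, 210 and 245 CPM in WT and 312, 228 and 258 CPM in KO. The log2 fold changes of *Rps2* and *Rps9* were 0.21 and 0.18, and 0.07 and 0.05 without KO replicate 1. In all 3 genes KO replicate 1 was highest, and KO replicate 2 lay inside the WT range. At the low end of KO replicate 1, *Rps21* deviated by -0.28 and *Rpl24* by -0.23, while KO replicate 3 had 0.42 and 0.20 for the same genes.

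In several libraries the deviations varied with coding length, a property the rule did not use. Coding length here is that of the longest annotated coding sequence, known for 82 of the 84 genes. Across these genes, which share each library's preparation, Spearman's rho between deviation and coding length was 0.79 in WT replicate 1, -0.03 in WT replicate 2, -0.76 in WT replicate 3 and 0.14 in WT replicate 4. It was 0.25, -0.66 and -0.55 in KO replicates 1, 2 and 3. The WT libraries set the mean, so a trend in 1 of them is offset by opposite trends among the others. All KO deviations share that same mean, so the values of rho are not independent between libraries. With GC content of the transcript, rho stayed between -0.22 and 0.27 in all 7 libraries. With the level of the gene it was 0.76, -0.05, -0.62 and 0.04 in WT replicates 1 to 4 and 0.24, -0.48 and -0.45 in KO replicates 1 to 3, so length and level were not separated. Short genes were thus low in WT replicate 1 and high in KO replicates 2 and 3. For the 27 genes with 138 to 399 coding bases the median deviation was -0.16 in WT replicate 1, 0.06 in WT replicate 3, and 0.02, 0.26 and 0.33 in KO replicates 1, 2 and 3. For the 28 genes with 582 to 1257 coding bases it was -0.01 and -0.11 in these WT libraries, and 0.17, 0.08 and 0.16 in KO.

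Other genes of the same coding lengths and of 35.2 CPM or more, the 10th percentile of the members, showed part of this pattern. Over 172 such genes with short coding sequences the median deviation was -0.09 in WT replicate 1 and -0.24, 0.10 and 0.15 in KO replicates 1, 2 and 3. Like the ribosomal genes they were low in WT replicate 1 and higher in KO replicates 2 and 3, but they were lowest in KO replicate 1. Over the short, middle and long bands the median log2 fold change of KO against WT was 0.22, 0.16 and 0.13 for the ribosomal protein genes, and -0.004, 0.002 and -0.02 for the other genes. The part of transcript length in the difference between groups was not tested.

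**Figure D4:**
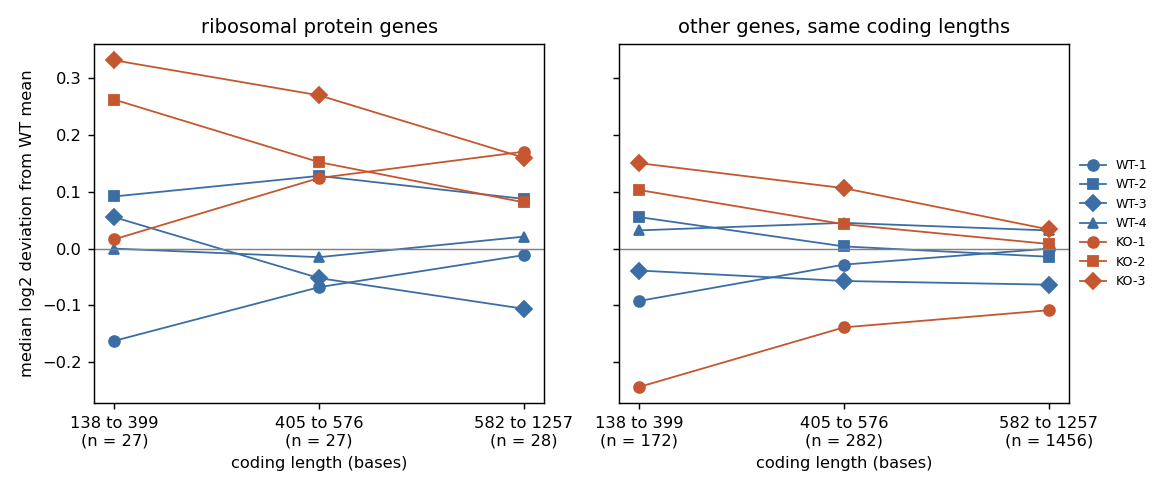
Median deviation from the WT mean (log2 CPM, vertical axis) in 3 bands of coding length for the ribosomal protein genes (left; 27, 27 and 28 genes) and for other genes of the same bands (right; 172, 282 and 1456 genes), with 1 line per library. On the left the KO lines are above 0 in every band, and on the right KO-1 is below 0 in every band.

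The partners of the ribosome outside the symbol rule did not pass the test. *Rack1*, a scaffold bound to the small subunit, read 300 to 361 CPM in WT and 349 to 457 CPM in KO (log2 fold change 0.23, SE 0.14; edgeR adjusted p = 0.454). *Fau* had a log2 fold change of 0.09. Over all genes tested, edgeR called 0 genes of every list below after adjustment. Counts at its unadjusted p under 0.05 and DESeq2's adjusted calls are given instead, to be read against 9.92% and 7.27% of all genes (edgeR, unadjusted, higher and lower) and 5.3% and 3.01% (DESeq2).

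Of 14 elongation factors and nascent chain partners, many of them TOP mRNAs themselves, the log2 fold change was above 0 for 10, and its median was 0.11. At the unadjusted p edgeR gave 3 higher and 1 lower. DESeq2 called 1 higher, *Tpt1*, a TOP mRNA that the list of small nucleolar RNA hosts below also holds (711 to 850 CPM in WT, 911 to 1002 CPM in KO; DESeq2 adjusted p = 0.0472). *Eef1b2*, an exchange factor for elongation factor 1A, read 126 to 149 CPM in WT and 159 to 193 CPM in KO. The 35 initiation factors had a median of 0.07, with 25 positive, 4 higher and 0 lower at the unadjusted p, and 1 called higher by DESeq2, *Eif2s2* (65.2 to 80.2 CPM in WT, 84.4 to 102 CPM in KO). Medians for both lists were smaller than for the ribosomal proteins.

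Factors that build ribosomes were taken next. Of 50 assembly factors tested 39 were positive, with a median of 0.13. At the unadjusted p 7 were higher and 0 lower, and DESeq2 called 1 higher. That gene was *Npm1*, the nucleolar chaperone nucleophosmin, at 140 to 150 CPM in WT and 262, 168 and 213 CPM in KO replicates 1, 2 and 3. RNA polymerase I and its factors, which transcribe ribosomal RNA, had 13 of 15 positive and a median of 0.10, with 0 higher and 1 lower at the unadjusted p, and DESeq2 called 0. Hosts of small nucleolar RNAs, many of them TOP RNAs, had a median of 0.27 over 16 genes, with 2 higher and 1 lower at the unadjusted p, and *Tpt1* again called higher by DESeq2. This list also holds *Rack1*. *Gas5*, such a host, read 44.8 to 52.4 CPM in WT and 73.8, 51.3 and 62.0 CPM in KO.

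Regulators gave mixed values. The TOR pathway and TOP-binding proteins had a median of 0.05 over 28 genes (16 positive, 3 higher and 1 lower at the unadjusted p, 2 called higher by DESeq2). The calls were *Ddit4l*, a relative of a TOR inhibitor (1.19 to 2.10 CPM in WT, 3.10 to 9.12 CPM in KO), and the kinase gene *Pim1* (31.1 to 50.9 CPM in WT, 60.7 to 102 CPM in KO). *Myc*, which drives many ribosomal genes, read 10.9, 8.11, 7.20 and 7.75 CPM in WT and 29.7, 7.61 and 19.7 CPM in KO, so KO replicate 2 lay inside the WT range (log2 fold change 1.16, SE 0.41; edgeR adjusted p = 0.227). Myc and its partners had a median of 0.08 over 10 genes, with 2 higher and 0 lower at the unadjusted p, and DESeq2 called 0. The stress response and ribosome quality list had a median of 0.04 over 17 genes (3 higher, 1 lower, 0 by DESeq2). The 15 genes of the p53 response had a median of 0.42, with 5 higher and 0 lower at the unadjusted p and 2 called higher by DESeq2. Both are p53 targets. *Eda2r* read 3.25 to 8.05 CPM in WT and 9.78 to 12.1 CPM in KO. *Ccng1* read 111 to 129 CPM in WT and 168 to 199 CPM in KO (edgeR adjusted p = 0.165, DESeq2 adjusted p = 4.1e-06).

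Ribosomal proteins of mitochondria lay near 0. For their 78 genes the median log2 fold change was -0.02, 33 positive and 45 negative, where the cytosolic set had 0.17 and 79 of 84 positive. At the unadjusted p edgeR gave 0 higher and 0 lower, and DESeq2 called 0. The 13 protein genes of the mitochondrial genome had a median of -0.25, with 12 of 13 negative and 0 at the unadjusted p or by DESeq2. No test was made of one list against another.

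**Figure D5:**
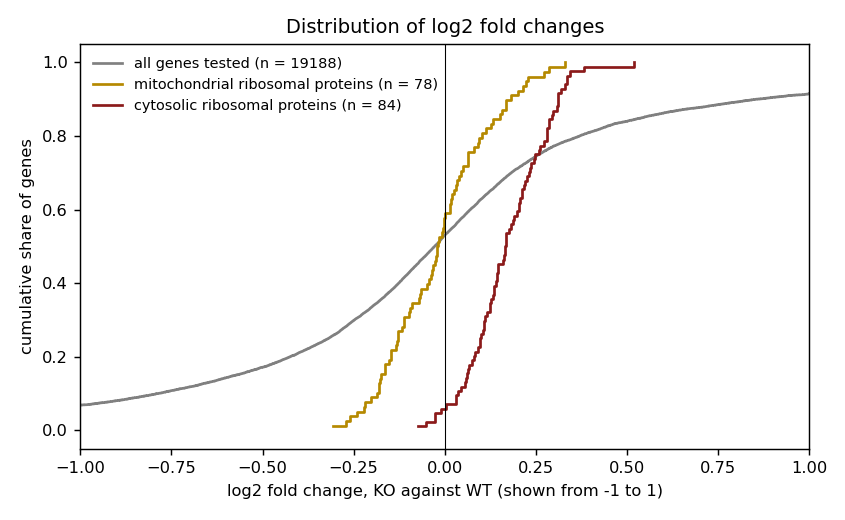
Cumulative share of genes (vertical axis) by log2 fold change of KO against WT (horizontal axis, shown from -1 to 1) for all 19188 genes tested, 78 mitochondrial ribosomal proteins and 84 cytosolic ribosomal proteins. The cytosolic curve lies to the right, with a median of 0.17, against -0.02 for the mitochondrial curve and -0.03 for all genes.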

How the data were processed

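Estimated counts for the 7 aorta libraries were taken from the single gene table that the authors deposited. They are whole numbers that were not scaled between libraries. The builds are GRCm38 and mm10, per the submitters' processing notes. For the aligner, counter, gene models and strandedness, the settings were not given in the sources used here. Reads of overlapping or antisense genes can therefore not be told apart. Low values pile up at multiples of 4 (1.27 times their neighbours), so a count need not be a read. Of 47729 identifiers 47224 matched a symbol. Positions and exon lengths come from GENCODE M21 (GRCm38).

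Genes were filtered with filterByExpr (*Mmp19* and *Acan* kept), scaled by TMM and tested with glmQLFit and glmQLFTest in edgeR 4.0.16 (R 4.3.3), without covariates, on 19188 genes with Benjamini-Hochberg adjustment at 0.05. DESeq2 1.42.0 and limma-voom (limma 3.58.1) with quality weights were alternatives, as were other scalings and filters, a fit with replicate numbers as blocks, and omitting single libraries. Fits were tested on simulated data. No pair of libraries was a duplicate (mean chi-square per gene 22.8 or more). Members, lists and tests were chosen with earlier results of these data known. Named were the 6 members of smallest p in each direction, the 3 most abundant per length in each subunit, paralogous copies and stalk genes, and from each list at most the 2 genes of smallest p. Outside this rule stand *Rpsa*, *Rps2*, *Rps9*, *Rps21*, *Rpl24*, *Rps12*, *Rps24*, *Rpl4* and *Tpt1*, named after their values were seen. Some genes that the rule or a count covers are not reported here by name.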

Additional observations from a re-analysis of the deposited data

Results flagged for a closer look

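For 4 of 37 quantities read in the 4 WT libraries, 1 library stood far from the others, where chance gives about 1 in 20 for a single quantity. The quantities come from the same libraries and vary together, so their number is not to be read as an excess over chance. *Rpl32* was at 141 CPM in WT replicate 2, against 119 to 122 CPM in the others, and *Rpl35* at 94.4 CPM in the same library, against 82.3 to 83.5 CPM. *Rps4x* was at 408 CPM in WT replicate 3, against 445 to 453 CPM. The level of *Rps27l* was 52.3% of that of *Rps27* in WT replicate 4, against 41.1% to 41.3%.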

How the results depend on the processing

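The median log2 fold change of the 84 genes was 0.17 and stayed between 0.13 and 0.23 under all 18 alternatives. That of the small subunit stayed between 0.15 and 0.25 under the 17 run for it. The large subunit median ran from 0.131 to 0.219 without 1 library. The difference in share of counts stayed between 0.234 and 0.394 percentage points. edgeR called 3 of all genes, 0 with no filter, 7 with the filter of 50 counts, 7 with counts divided by 4 (chosen after seeing the data) and 0 to 1029 without 1 library (1029 without KO replicate 2, 0 without any other single library). DESeq2 called 1594 of all genes and 9 members, and limma-voom called 7 genes. With the replicate number as a replicate block, edgeR called 0 genes and 0 members (median 0.165). Same-numbered libraries correlated at 0.054, 0.069 and 0.34 in their deviations. WT and KO libraries of different numbers were not compared in this way, so these values cannot show whether the numbers are pairs. The main fit did not take them as pairs. Without 1 library (chosen after seeing the data), DESeq2 called 0 to 13 members higher (2.36% to 8.89% of all genes), and 26 to 46 members did not overlap (10.5% to 16.2% of all genes). The number without overlap cannot fall when a library is left out.

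Signs turned for members near 0. *Rpl22l1* was at 0.16 with limma-voom and ran from -0.31 to 0.14 without 1 library. *Rpl9* was at 0.014 (50 counts), 0.059 (limma-voom), 0.0041 (replicate block) and 0.013 (counts divided by 4), and ran from -0.088 to 0.077 without 1 library. *Rps29* was at 0.028 with the block and ran from -0.20 to 0.090. *Rps3a1* was at -0.0015 with upper-quartile scaling and ran from -0.025 to 0.060. *Rps3a2* was at 0.0028 (50 counts), 0.018 (block) and 0.023 (divided by 4), and ran from -0.088 to 0.071. The cause was not tested.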
